A study of Mus musculus with 60 samples.

Results

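Potassium channel genes were taken as all genes whose symbol begins with Kcn, apart from 1 that is not reported here. Each was represented by its brightest probe set annotated with that symbol alone, and it was tested where its log2 intensity was at least 4 on at least 6 of 60 arrays. Of 83 such symbols on the array, 59 were tested, among 11886 genes tested in all. The other 24 reached log2 4 on 0 arrays, and they included Kcne1, Kcng2 and Kcnv2, which lay at the lowest value of the arrays, 2.07 on the log2 scale, throughout. Of the 59 genes, 55 lay at log2 4 or above on all 60 arrays, and the 4 others were Kcnj16, Kcne4, Kcna5 and Kcng4, with 54, 58, 45 and 12 such arrays.

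Potassium channels let potassium leave or enter the cell along its gradient, and they set the resting potential, the shape of the action potential and the firing pattern of neurons. Voltage-gated pore subunits open on depolarisation, silent subunits modify them, inward rectifiers hold the membrane near rest, two-pore-domain channels carry leak current, and calcium- or sodium-activated channels end bursts of firing. In the cortex, astrocytes take up potassium released by active neurons through an inward rectifier, and G-protein-gated inward rectifiers are opened by receptors such as the serotonin receptor Htr1a. Fluoxetine, which blocks serotonin reuptake, is also known to inhibit the current of the channels coded by Kcnk2 and by the Kcnj3 family in cells made to express them.

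Cortex of male mice of 30 inbred strains was measured after fluoxetine or after water. The fluoxetine group received 18 mg/kg per day by mouth for 21 days, and the water group received 0 mg/kg. Mice were 10 to 11 weeks old per the labels, and the treatment was followed by behavioural tests before the tissue was taken. For each array, RNA from 3 mice that shared strain and treatment was pooled, so there were 30 fluoxetine arrays and 30 water arrays, 1 of each per strain. Pools were the only units measured, and the p-values rest on how far the difference within strains varied. Array medians of the deposited intensity lay between 39.1 and 43.1, and the number of arrays limits the precision. All 6 neuron markers and all 7 astrocyte markers passed the filter, and of 6 choroid plexus markers only Ttr did, and the summed intensity of that list ran from 51.1 to 2404 in fluoxetine arrays and from 65.4 to 35000 in water arrays.

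The promoter windows of 3 inward rectifier genes, from RefSeq on GRCm38.p6, are shown first: Kcnj16 and Kcnj9 because strains fell into separate sets on them, and Kcnj10 because it is the neighbour of Kcnj9 and was lowest in the same strains. Each window covers mostly the bases before an annotated start, and a short stretch after it. Capitals mark matches, on either strand, to a set of short promoter motifs. The motif searched was GGGCGG for the GC box, with the letters CCAAT for the box of that name and the letters TATAAA for the TATA box. The E-box was searched as CACGTG, and the cyclic AMP response element (CRE) was searched as TGACGTCA. No match overlapped a match to another motif. The genome is that of C57BL/6J. On the brightest probe sets this strain was in the low set of Kcnj9, among the lowest in Kcnj10, and not in the low set of Kcnj16. The Kcnj16 window lies on the plus strand at chr11:110967783-110968082 and is the first of 4 listed. The Kcnj9 window lies on the minus strand at chr1:172329273-172329572, and the Kcnj10 window on the plus strand at chr1:172340960-172341259.
Kcnj16: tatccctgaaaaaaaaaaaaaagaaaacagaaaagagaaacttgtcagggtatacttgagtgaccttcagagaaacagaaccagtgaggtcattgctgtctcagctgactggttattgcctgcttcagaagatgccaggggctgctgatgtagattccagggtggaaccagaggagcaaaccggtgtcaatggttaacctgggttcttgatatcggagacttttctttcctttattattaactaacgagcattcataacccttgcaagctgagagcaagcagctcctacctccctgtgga
Kcnj9: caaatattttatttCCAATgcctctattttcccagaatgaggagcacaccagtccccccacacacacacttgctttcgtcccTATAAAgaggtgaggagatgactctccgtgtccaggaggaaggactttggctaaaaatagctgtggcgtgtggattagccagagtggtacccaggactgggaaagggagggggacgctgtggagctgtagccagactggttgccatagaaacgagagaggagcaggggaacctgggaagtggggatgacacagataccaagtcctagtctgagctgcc
Kcnj10: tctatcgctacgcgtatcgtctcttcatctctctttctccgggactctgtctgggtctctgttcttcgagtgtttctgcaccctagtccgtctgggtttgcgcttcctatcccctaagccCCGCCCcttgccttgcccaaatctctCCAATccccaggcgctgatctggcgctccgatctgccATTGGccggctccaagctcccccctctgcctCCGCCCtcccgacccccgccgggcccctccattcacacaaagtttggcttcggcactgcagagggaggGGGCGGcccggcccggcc
The Kcnj16 window held no match, the Kcnj9 window held 1 CCAAT box and 1 TATA box, and the Kcnj10 window held GC and CCAAT boxes only. Its GC content was 63.7%, against 52.3% in the Kcnj9 window and 44.3% in the Kcnj16 window.

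The first question was how far the channel genes differ between strains. By limma's F-test of the strain coefficients, 51 of the 59 genes differed between strains at an adjusted p under 0.05, or 86.4%, and 88.3% of all genes tested did so. The range of a gene is given here as the highest minus the lowest strain mean on the log2 scale. It was at least 1 in 19 of the 59 genes (32.2%), against 27.4% of all genes, and at least 2 in 4, namely Kcnj16, Kcnj9, Kcna5 and Kcnj6, against 6.75% of all genes. The median range was 0.81 in the channel genes and 0.68 over all genes. A gene was called split where the largest gap between neighbouring strain means was at least 1 and no array crossed it, and 2 channel genes were, Kcnj16 and Kcnj9, against 3.24% of all genes. The correlation of both arrays of a strain within a gene (intraclass correlation) was over 0.9 in 6 channel genes, against 5.68% of all genes, and its median was 0.55, against 0.59.

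**Figure D1:**
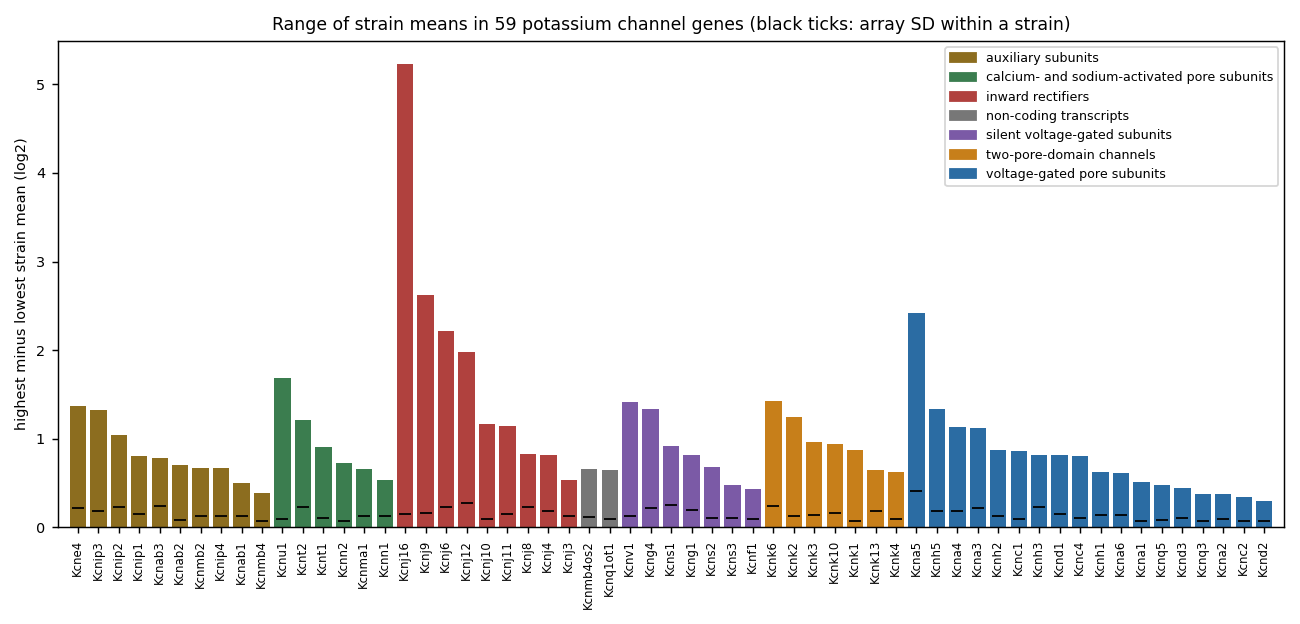
Highest minus lowest strain mean (log2 intensity, linear axis from 0) of each of the 59 potassium channel genes, grouped and coloured by role, with the SD of arrays within a strain as a black tick. The bars reach from 0.30 in Kcnd2 to 5.23 in Kcnj16, and 4 inward rectifier genes and Kcna5 stand above 1.9.

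On the brightest probe sets, the inward rectifiers had the widest median strain range of any role. All 9 of them passed the F-test, against 88.3% of all genes, and 6 had a range of at least 1, against 27.4%. Their median range was 1.16, against 0.68 over all genes. Single genes of other roles ranged as widely, since the voltage-gated Kcna5 (2.41) stood above Kcnj6 (2.22) and Kcnj12 (1.98). The order also turned on the choice of probe set. When the probe sets of each gene were averaged, the voltage-gated Kcnh1 (3.06) and Kcnq5 (2.47) ranged wider than Kcnj9 (1.48) and Kcnj6 (0.52). Kcnj16 kept a range of at least 4.54 in every alternative. Kcnj16 codes for a subunit that forms channels together with the product of Kcnj10. Its log2 intensity was 2.98, 7.53 and 8.01 on the lowest, median and highest fluoxetine arrays, and 2.90, 7.48 and 8.34 on the water arrays. The low arrays came from 3 strains in both treatments. MRL/MpJ had 2.98 with fluoxetine and 2.90 with water, AKR/J had 3.84 with fluoxetine and 3.43 with water, and LG/J had 3.72 with fluoxetine and 3.70 with water. In the other 27 strains the fluoxetine arrays lay between 6.87 and 8.01 and the water arrays between 7.14 and 8.34, so the sets were separated by a gap of 3.40 in strain means (limma F-test, adjusted p = 5.1e-25). The range was 5.23 and the intraclass correlation 0.987, and the low end lay near the lowest value of the arrays, so no fold is given. MRL was bred largely from LG with a contribution of AKR, so these strains are related.

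A second probe set of Kcnj16 placed the same 3 strains lowest. On it the 3 strains had 2.85 to 4.33 with fluoxetine and 2.94 to 3.56 with water, and the other strains had 6.32 to 8.07 with fluoxetine and 5.96 to 7.92 with water. The gap in strain means was 2.30. Both probe sets thus separated the strains without overlap.

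Kcnj9 codes for a G-protein-gated subunit (GIRK3). Its log2 intensity ran over 9.48, 12.10 and 12.56 (lowest, median, highest) in fluoxetine arrays and over 10.14, 12.14 and 12.55 in water arrays. The 6 low strains, I/LnJ, C57BR/cdJ, BTBRT T(+) tf/J, MA/MyJ, C57BL/6J and C57BLKS/J, had 9.48 to 10.05 with fluoxetine and 10.14 to 10.45 with water. The 24 others had 11.24 to 12.56 with fluoxetine and 11.85 to 12.55 with water. The gap was 1.30, the range 2.62 or 6.14-fold, and the adjusted p of limma's F-test 5.68e-19.

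The probe sets of Kcnj9 disagreed. On a dimmer probe set the 6 strains were also low, with 2.90 to 5.51 with fluoxetine and 4.42 to 5.80 with water. The others had 5.35 to 7.75 with fluoxetine and 5.60 to 7.51 with water, and the sets overlapped. On another they tended high, with 9.50 to 9.88 with fluoxetine and 9.45 to 10.17 with water. The others had 8.66 to 9.75 with fluoxetine and 9.26 to 9.76 with water. The fourth probe set lay near the lowest value. With the mean of all probe sets the range of Kcnj9 was 1.48 in place of 2.62, and the cause of the disagreement was not tested.

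**Figure D2:**
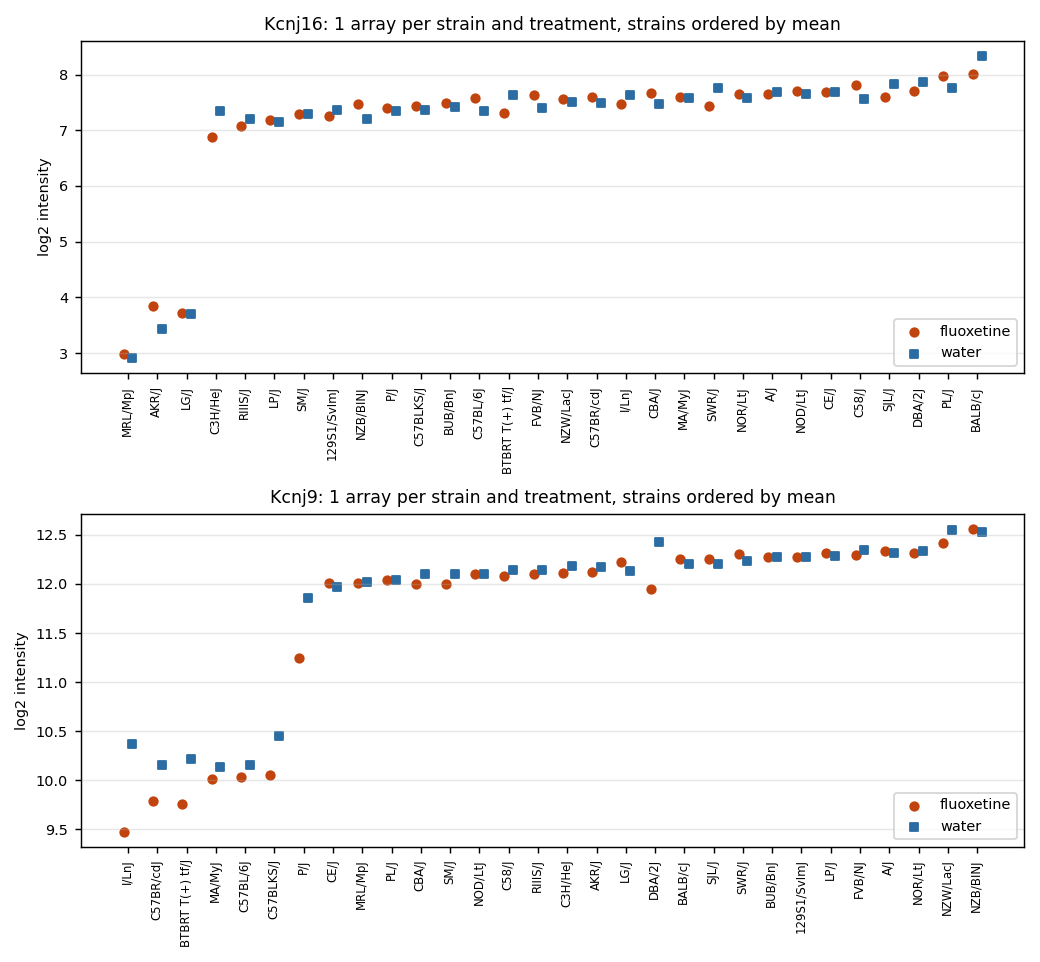
Log2 intensity of Kcnj16 (top) and Kcnj9 (bottom) on the fluoxetine array (circles) and the water array (squares) of each of 30 strains, ordered by strain mean. For Kcnj16 the arrays of MRL/MpJ, AKR/J and LG/J lie below 4 and all others above 6.8, and for Kcnj9 the arrays of 6 strains lie below 10.5 and all others above 11.2.

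Kcnj10, which codes for the main astrocytic potassium channel, lies beside Kcnj9 on chromosome 1, with 0 genes between them in RefSeq. The 6 strains with the lowest Kcnj10 were the same 6 as for Kcnj9. In those strains Kcnj10 had 10.53 to 10.83 with fluoxetine and 10.55 to 10.79 with water. In the 24 others it had 11.03 to 11.69 with fluoxetine and 11.01 to 11.71 with water, so the arrays did not overlap, although the gap in strain means was only 0.24. The highest strains were BALB/cJ, NOR/LtJ and NOD/LtJ. The range was 1.16, the intraclass correlation 0.917 and the adjusted p of limma's F-test 5.99e-13. This match of strains was noticed in the data and has no test of its own. Kcnj16, on chromosome 11, had other low strains.

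Among the other inward rectifiers, Kcnj6 (GIRK2) had 4.68, 5.20 and 7.08 in fluoxetine arrays and 4.45, 5.20 and 6.87 in water arrays (lowest, median, highest). SM/J, DBA/2J and BALB/cJ were highest, and SJL/J, NZB/BlNJ and C57BLKS/J lowest. The range was 2.22 (adjusted p = 3.03e-12, limma F-test), but with the mean of its probe sets it was 0.52. That mean takes in Kcnj6 probe sets that reached log2 4 on 0 arrays, which can narrow it. The second brightest Kcnj6 probe set ranged over 0.61. Kcnj12, a constitutively open rectifier, had a range of 1.98, with I/LnJ highest and FVB/NJ lowest. Kcnj8, the pore of the ATP-sensitive channel of pericytes, ranged over 0.83, and Kcnj3 (GIRK1), a partner of other GIRK subunits in much of the brain, over 0.54.

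Of 18 voltage-gated pore subunits tested, 14 passed the F-test and 4 had a range of at least 1, with a median range of 0.72. Of all genes 88.3% passed and 27.4% had such a range. The narrowest ranges of all 59 genes were 0.30 in Kcnd2, which carries dendritic A-type current, 0.34 in Kcnc2, and 0.38 in each of Kcna2 and Kcnq3. With the mean of all probe sets Kcnq3 ranged over 0.76, Kcnd2 over 0.41 and Kcna2 over 0.29. For Kcnd2 and Kcna2 that mean takes in probe sets that reached log2 4 on 0 arrays, which can narrow it. Other Kcnd2 probe sets, at log2 4 or above on all 60 arrays, ranged over 0.51 and 0.86. Kcna1, an axonal channel of the same family as Kcna2, ranged over 0.51. Kcnd2 had 12.01, 12.28 and 12.47 (lowest, median, highest) in fluoxetine arrays and 12.15, 12.29 and 12.41 in water arrays. Neither Kcnd2 (adjusted p = 0.0586) nor Kcna2 (adjusted p = 0.0585) passed limma's F-test.

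Kcna5, of low signal, had the widest range of this class at 2.41, with NOR/LtJ, NOD/LtJ and SM/J lowest and P/J, MRL/MpJ and MA/MyJ highest, and 45 of its 60 arrays reached log2 4. Its arrays within a strain had an SD of 0.41, the largest of the 59 genes. Kcnh5, an ether-a-go-go channel, had a range of 1.33, highest in 129S1/SvImJ, and it was 0.96 without that strain. Kcnc1, which supports fast spiking of interneurons, ranged over 0.86, lowest in P/J and I/LnJ, and over 0.29 with the mean of its probe sets. On its second brightest probe set P/J was instead the highest strain after DBA/2J. Kcnd1, another A-type channel, ranged over 0.81, and over 0.34 with the mean of its probe sets. In Kcnc1 and Kcnd1 these means take in probe sets that reached log2 4 on 0 arrays, which can narrow them.

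In this class Kcnq5 and Kcnh1 showed a split only on a probe set that was not the brightest, as did Kcna1, given below, for 1 strain. For Kcnq5, whose channel carries M-current, such a probe set gave 3.73 to 6.00 with fluoxetine and 3.84 to 6.10 with water in 13 strains. In the 17 others it gave 9.74 to 11.24 with fluoxetine and 10.02 to 11.26 with water. The brightest probe set had a range of only 0.47, and the 13 strains averaged 12.18 on it, against 12.14 in the 17 others. For Kcnh1, an ether-a-go-go channel, it gave 4.10 to 4.62 with fluoxetine and 3.62 to 4.68 with water in I/LnJ, SM/J and SWR/J. In the 27 others it gave 8.42 to 9.92 with fluoxetine and 8.46 to 10.00 with water. The 3 strains averaged 11.19 on the brightest probe set, against 11.16 in the others. With the mean of all probe sets the ranges were 2.47 in Kcnq5 and 3.06 in Kcnh1, so for both genes the strain pattern turned on the choice of probe set.

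Single strains stood apart on 3 further probe sets that were not the brightest. SWR/J was low in Kcna1, AKR/J was low in Kcnma1, which codes for the large-conductance calcium-activated pore, and CE/J was high in Kcns2. The gaps were 1.01, 1.03 and 1.27. On the brightest probe sets these genes ranged over 0.51, 0.65 and 0.67. AKR/J was also the lowest strain on the remaining Kcnma1 probe sets, which ranged over 1.84, 1.97 and 0.85. Only on the brightest was it not low, at 11.78 against 11.68 in the other strains.

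**Figure D3:**
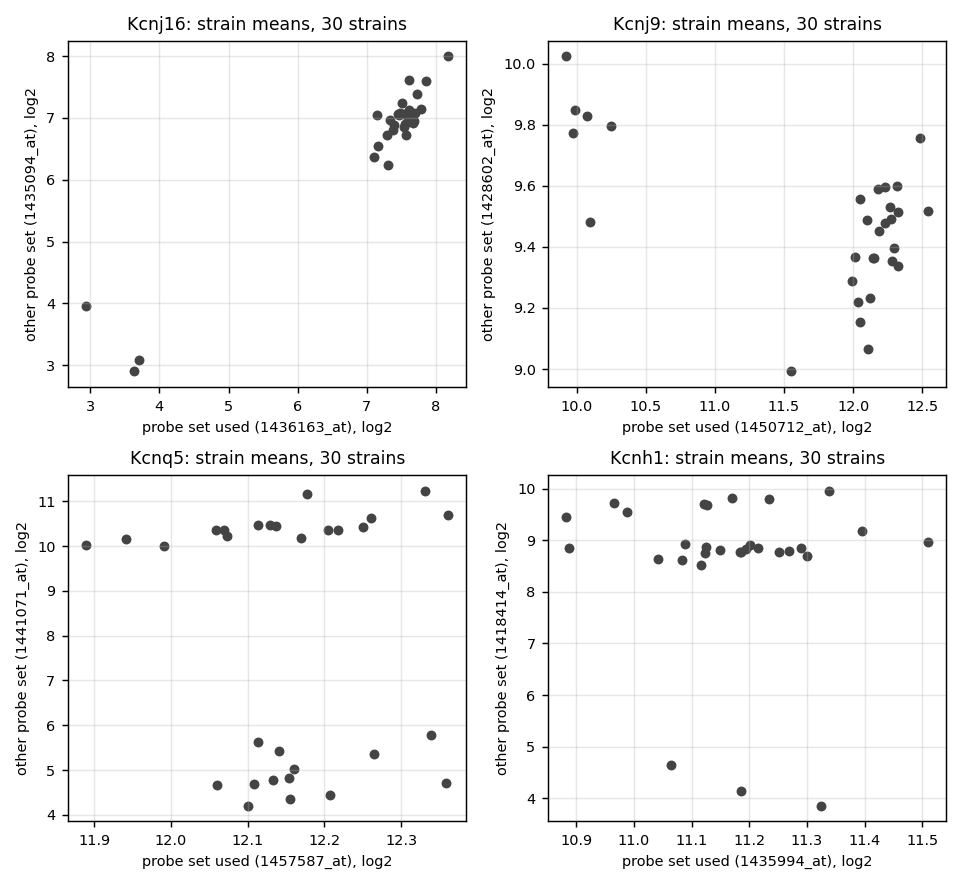
Strain means (log2 intensity, 30 points a panel) on the brightest probe set (horizontal) and on another probe set (vertical) of Kcnj16, Kcnj9, Kcnq5 and Kcnh1. Kcnj16 falls into the same sets on both axes, the Kcnj9 strains low on one axis tend high on the other, and Kcnq5 and Kcnh1 split on the vertical axis alone.

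Of the silent voltage-gated subunits, which form no channel of their own, 5 of 7 passed the F-test, against 88.3% of all genes. Kcnv1 had 9.96, 10.90 and 11.39 (lowest, median, highest) in fluoxetine arrays and 9.81, 10.90 and 11.36 in water arrays, with LG/J, MRL/MpJ and C3H/HeJ lowest. Its range was 1.42 and its intraclass correlation 0.925, but its other probe sets placed other strains lowest, and with their mean the range was 0.52. On 1 of them LG/J, the lowest strain here, was among the 3 highest. Kcng4 was near the detection limit, with a range of 1.33 that was 0.75 without NZB/BlNJ. Kcns1 ranged over 0.91 and did not pass (adjusted p = 0.101), while Kcnf1 ranged over 0.43 and passed (adjusted p = 0.0022).

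Of the two-pore-domain channels, 6 of 7 passed, against 88.3% of all genes, with a median range of 0.94. Kcnk2 (TREK-1), a leak channel opened by stretch and lipids, had 8.92, 9.84 and 10.20 in fluoxetine arrays and 8.92, 9.85 and 10.19 in water arrays (lowest, median, highest). LP/J, I/LnJ and CBA/J were lowest. Its range of 1.24 (adjusted p = 1.12e-07, limma F-test) was 0.76 without LP/J. Kcnk6 ranged over 1.43, with DBA/2J highest and SM/J lowest, and over 1.02 without DBA/2J. Kcnk1 (TWIK-1) had a smaller range of 0.87 but arrays that agreed closely within strains, with an intraclass correlation of 0.924.

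The calcium- and sodium-activated pore subunits and their relative Kcnu1 all passed, 6 of 6, against 88.3% of all genes. Kcnu1, known for its role in sperm, ranged over 1.69, and over 0.72 without PL/J, the lowest strain at 4.07. Kcnt1 and Kcnt2 code for sodium-activated channels and ranged over 0.90 and 1.21. The Kcnt1 range was 0.55 without MA/MyJ. Kcnn2, a small-conductance calcium-activated channel that follows bursts of spikes, ranged over 0.73 with an intraclass correlation of 0.918, highest in NZB/BlNJ, PL/J and CE/J.

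Of the auxiliary subunits, 9 of 10 passed, against 88.3% of all genes. Kcnip3, a calcium sensor that binds Kcnd channels and DNA, ranged over 1.33, with 129S1/SvImJ, FVB/NJ and A/J lowest and C57BR/cdJ, LG/J and NOR/LtJ highest. Kcne4, an accessory subunit of low signal, ranged over 1.37, and Kcnip2, which also binds Kcnd channels, over 1.04. Kcnab3 ranged over 0.78 and did not pass (adjusted p = 0.0984). Kcnmb2, which inactivates the Kcnma1 channel, ranged over 0.67, and over 0.45 without LP/J. The 2 non-coding transcripts passed as well, Kcnq1ot1, an antisense transcript of the imprinted Kcnq1 locus, at 0.64, and Kcnmb4os2 at 0.66, or 0.44 without BALB/cJ. Many probe sets, weak ones and some brighter ones, gave exactly the same value on several arrays. At least 10 arrays shared 1 value in 13 of the 59 genes, among them Kcng4, Kcnmb2 and Kcne4, so small differences in these genes have no order.

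The second question was which channel genes changed with fluoxetine on all backgrounds. By limma with strain as a block, 0 of the 59 genes passed an adjusted p of 0.05, and 0.0589% of all genes did, 7 in number. At an unadjusted p under 0.05 there were 14 channel genes, or 23.7%, against 15.3% of all genes. Of these, 6 had a positive difference, against 7.3% of all genes at that level, and 8 a negative one, against 8% of all genes. Over all 59, 31 differences were positive and 28 negative, and 53.1% of all genes were negative. The median difference was 0.0029 in channel genes and -0.0029 over all genes, on the log2 scale.

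**Figure D4:**
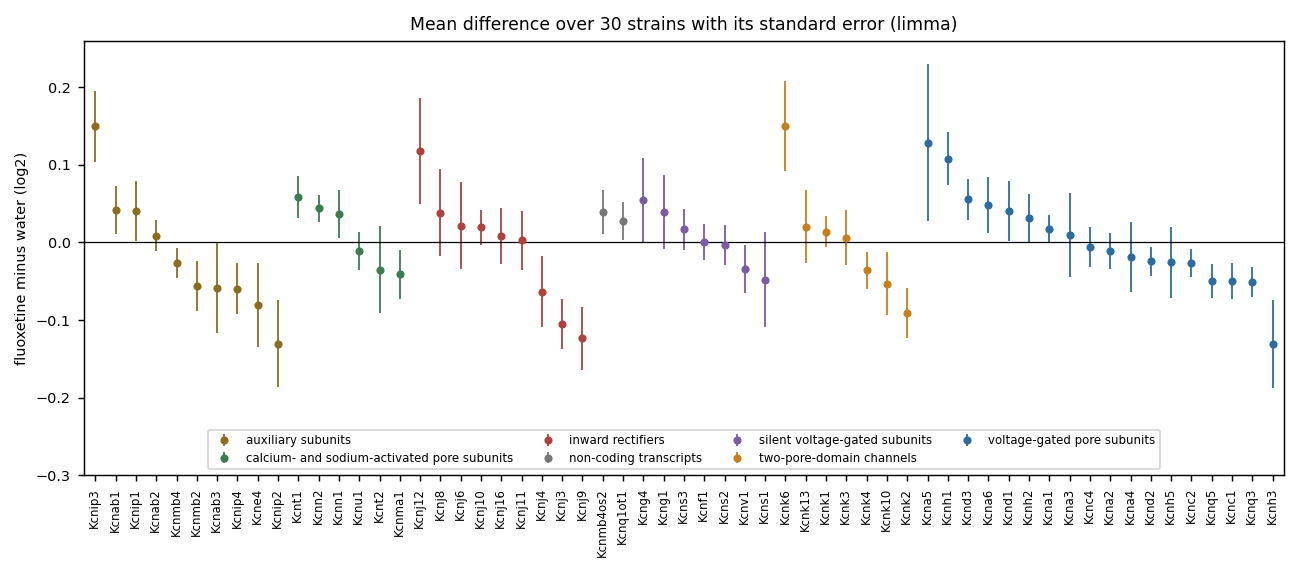
Mean fluoxetine minus water difference (log2, linear axis) of the 59 potassium channel genes over 30 strains, with the standard error from limma, ordered within each role. All means lie between -0.13 and 0.15, and 0 of them passed the adjusted threshold.

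Kcnip3 and Kcnj3 had the smallest p. Kcnip3 averaged 9.86 ± 0.35 with fluoxetine and 9.71 ± 0.29 with water (SD, n = 30 arrays each), a difference of 0.15 (SE 0.0455, limma adjusted p = 0.118) that was positive in 24 of 30 strains. Kcnj3 averaged 12.17 ± 0.20 with fluoxetine and 12.28 ± 0.16 with water. Its difference was -0.10 (SE 0.0319, limma adjusted p = 0.118), negative in 23 strains. The 4 probe sets of Kcnj3 all gave negative means, between -0.17 and -0.10. The second probe set of Kcnip3 gave 0.09, positive in 18 strains and negative in 12. These differences are small beside the spread between strains, and the arrays of both groups overlapped widely.

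The other genes named on the positive side were Kcnh1, at 0.11 (SE 0.0344, adjusted p = 0.134, positive in 24 strains), Kcnk6 at 0.15 (adjusted p = 0.204, 20 strains), which was -0.01 with marker scores as covariates, and Kcnn2 at 0.04 (adjusted p = 0.215, 18 strains). On the negative side they were Kcnj9, at -0.12 (adjusted p = 0.142, negative in 20 strains), Kcnk2 at -0.09 (adjusted p = 0.172, 21 strains) and Kcnq3 at -0.05 (adjusted p = 0.204, 20 strains). The median difference of Kcnj9 was only -0.04. In its 6 low strains the medians were 9.90 with fluoxetine and 10.19 with water, and in the 24 others 12.17 and 12.19. This contrast was not tested. Kcnj16 and Kcnj10 differed by 0.0081 and 0.02.

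The within-strain differences were uneven. P/J held the largest absolute difference of 16 of the 59 genes, or 27.1%, and of 18.9% of all genes, and DBA/2J that of 10, or 16.9%, against 8.91%. Both also stood highest in the median absolute difference over all genes. In P/J the difference was 1.19 in Kcnk6, 0.79 in Kcnip3, -1.35 in Kcnip2, -0.83 in Kcnh3 and -0.66 in Kcnj3. In DBA/2J, C58/J and I/LnJ these 5 genes had the same signs as in P/J, while in BUB/BnJ Kcnip3 and Kcnk6 were both at -0.31. A single strain and treatment is 1 array, so none of these has a replicate.

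**Figure D5:**
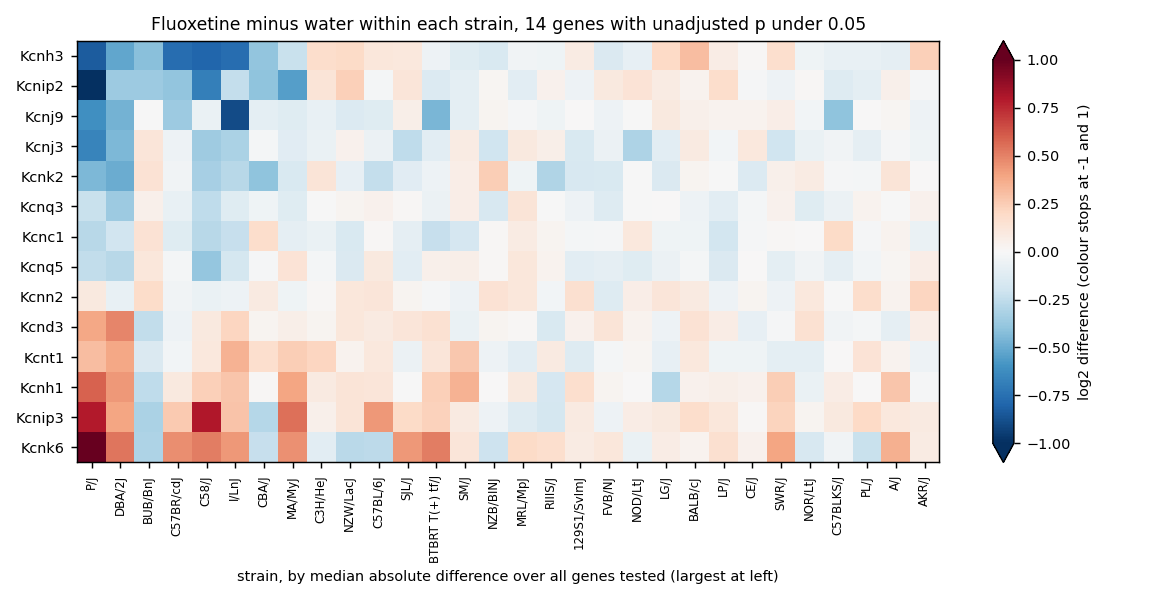
Fluoxetine minus water (log2, colour) in each of 30 strains (columns, ordered by their median absolute difference over all genes) for the 14 potassium channel genes with an unadjusted p under 0.05. Most of the strong colours lie in P/J, DBA/2J, C58/J and I/LnJ at the left.

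The largest single differences outside P/J were 1.46 in Kcna5 in I/LnJ, -1.23 in Kcns1 in C58/J and 1.16 in Kcnj12 in NZW/LacJ. Kcns1 averaged -0.05, and -0.0072 without C58/J. Kcna5 averaged 0.13, and 0.08 without I/LnJ. Without the 5 strains of largest overall difference, a choice made after seeing the data, 7 channel genes had an unadjusted p under 0.05 in place of 14. Kcnip3 was then at 0.10 and Kcnip2 at -0.03. Over all genes, 3 passed the adjusted threshold there in place of 7, and the share at an unadjusted p under 0.05 was not counted.

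Markers of other cell types moved beside these values. All 7 oligodendrocyte markers tested had negative mean differences, with a median of -0.25, and their summed intensity ran from 19280 to 46610 in fluoxetine arrays and from 26490 to 44850 in water arrays. All 4 markers of oligodendrocyte precursors were negative too, at a median of -0.08, while the neuron markers had a median of 0.0001. The choroid plexus marker Ttr differed by -0.44, and the medians were -0.10 in endothelium, -0.04 in pericytes and 0.10 in the 2 hippocampal markers tested. The summed intensity of the hippocampal list ran from 1326 to 6459 in fluoxetine arrays and from 1290 to 2970 in water arrays. The medians of astrocyte, interneuron, microglia, striatum and thalamus markers lay between -0.02 and 0.03. Marker scores were used as covariates from the oligodendrocyte, astrocyte, endothelium, choroid plexus (Ttr alone), striatum and thalamus lists, and not from the others. With these scores as covariates, 4 channel genes had an unadjusted p under 0.05, Kcnip3 was at 0.04 and Kcnh1 at 0.03. Over all genes, 2 passed the adjusted threshold there in place of 7, and the share at an unadjusted p under 0.05 was not counted. Under that setting the sign turned in Kcnk6, to -0.01, in Kcnip2, to 0.03, and in Kcns1, to 0.05. In tissue RNA, fewer cells of a type and less RNA per cell cannot be told apart.

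Channels were set against markers of the cells known to use them in 12 relations over the 30 strains, with permutation p and Benjamini-Hochberg adjustment, and 0 passed. The smallest p belonged to Kcnj10 and the astrocyte markers. Over strain means Pearson's r was 0.42 (permutation p = 0.0191, adjusted 0.16) and Spearman's rho 0.41 (permutation p = 0.0277, adjusted 0.332). Without the 2 strains farthest from the median, r was 0.31. Over the within-strain differences r was 0.41 (permutation p = 0.0266, adjusted 0.16) and rho 0.18 (permutation p = 0.334, adjusted 0.688), and r was 0.04 without C58/J and P/J, so that relation rests on those strains.

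Proteins that bind, traffic or complement potassium channels were read from a list of 43 genes, of which 31 were tested. With fluoxetine 0 of the 31 passed in limma and 6 had an unadjusted p under 0.05, against 15.3% of all genes, 3 positive and 3 negative. The smallest p belonged to Lgi1, a secreted partner of Kcna1 channels, at 0.07 (adjusted p = 0.178), its receptor Adam23 at -0.06 (adjusted p = 0.183), Lrrc38, an auxiliary protein of the Kcnma1 channel, at 0.07 (adjusted p = 0.208), and Abcc8, the regulatory subunit of the ATP-sensitive channel, at -0.10 (adjusted p = 0.215). Between strains 29 of the 31 passed the F-test, against 88.3% of all genes, with a median range of 0.62, against 0.68 over all genes. The widest ranges were 1.67 in Rgs7, which speeds the closing of GIRK channels and was lowest in SM/J, and 1.55 in the scaffold Dlg4. Next came 1.42 in the G-protein subunit Gnb1, lowest in C57BLKS/J, and 1.26 in the astrocytic water channel Aqp4. The arrays of a strain agreed poorly in Dlg4, with an intraclass correlation of 0.27 (limma F-test, adjusted p = 0.046). It was 0.963 in Rgs7, 0.976 in Gnb1 and 0.65 in Aqp4.

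Promoter windows in the RefSeq table matched 45 of the 59 genes, with 68 windows. The GC box was found in 45.6% of them, against 35.7% of all 32851 windows, and the TATA box in 4.41%, against 13.6%. CCAAT was found in 32.4%, against 37.4%, the E-box in 4.41%, against 7.15%, and the CRE in 0 windows, against 1.79%. The median GC content was 58.2% in windows of channel genes and 52.7% over all windows, and windows of 1 gene can overlap. The Kcnj9 window was 1 of the 3 with a TATA box among the channel genes.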

How the data were processed

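The authors deposited a linear intensity for each probe set on each array, which they made with GCRMA per the submitters' processing notes. No version is given in the sources used here. This method corrects background by probe sequence, and differences near the lowest value have no order. They were transformed to log2 here without a pseudocount. Of 45101 probe sets, 34945 had 1 gene symbol in the platform annotation and 932 several, which were left out. Fluoxetine and water were compared with limma 3.58.1 in R 4.3.3 (lmFit, eBayes, two-sided), with the strain as block and p-values adjusted by Benjamini-Hochberg over all 11886 genes at 0.05. Strain differences used that fit's F-test. The pairing comes from the strain label. Permutation tests used 100000 resamples. The code was tested on simulated data. Scan dates and batches were not analysed here.

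The members and lists were chosen with earlier results of these data known. Genes named were the 4 positive and 4 negative differences of smallest p, the 12 largest strain ranges, the widest gene of each subfamily, a fixed set (of which Kcne2 was below the filter and some members are not reported here), the 5 largest single differences, and 8 partner genes. Kcnc2, Kcnh3, Kcnk1, genes named for other probe sets, and the match of Kcnj9 and Kcnj10, were chosen after their values were seen. Alternatives were other filters, scalings, probe set rules, prior settings, covariates, no strain block, and leaving out each strain.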

Additional observations from a re-analysis of the deposited data

How the results depend on the processing

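The count of channel genes past the threshold with fluoxetine was 0 under all 39 alternatives, and so was that of partner genes. The lowest adjusted p of a channel gene was 0.0696, in Kcnip3, over all of them. With no replicate block, 0 genes of all tested passed in place of 7, and 3 channel genes had an unadjusted p under 0.05 in place of 14. The share of all genes at that unadjusted level was not counted without the block. Leaving out 1 strain gave 0 to 21 genes in all, 0 without C57BLKS/J or C58/J and 21 without RIIIS/J. The strain F-test called 46 of 52 channel genes tested with the log2 filter at 6, and 51 of 83 with no filter. In the other settings, all on 59 genes, it called 48 to 54, and 49 to 53 with 1 strain left out. The share of all genes called by the F-test in these settings is not given here. The sign of the fluoxetine difference turned with marker scores as covariates in Kcnip2 (0.0295), Kcnk6 (-0.0132) and Kcns1 (0.0454), and in Kcns1 (0.0288) without the 5 strains, and the cause was not tested. The differences of the 10 other channel genes that were recomputed kept their sign; Kcnj16 and single partner genes were not recomputed. With the covariates the strain range was 1.29 in Kcnab3 and 1.39 in Kcnj8, with the mean of all probe sets it was 1.12 in Kcnma1 and 0.33 in Kcnmb2, and without the 5 strains it was 0.92 in Kcnk6 and 0.68 in Kcnip2. Differences below about log2 4 are limited by the background correction.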
